A study of Mus musculus with 4 samples.

Results

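The Sox genes encode transcription factors with a DNA-binding domain of the HMG box type, first found in the testis-determining factor Sry. Read counts were examined for 10 of them, the rows of the deposited count table named Sox2, Sox4, Sox5, Sox6, Sox8, Sox9, Sox10, Sox11, Sox12 and Sox13, out of 23473 rows with a gene name. The RNA-seq libraries were made from total RNA of cells labelled MIN6, an insulinoma line of the mouse that serves as a stand-in for pancreatic beta cells. Libraries came from wild type control cells (2 libraries) and from cells with stable overexpression of TLX, the orphan nuclear receptor encoded by Nr2e1 (2 libraries), and every library was grown at 25 mM glucose and 15% serum. The sources used here do not name the vector or its promoter, nor say whether the stable cells are 1 clone. The comparison asks how transcript levels differ under TLX overexpression. The 10 symbols were chosen by family name with their counts in control and TLX libraries already known, so the levels and differences of the 10 genes are a description and no p-value is printed for them.

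Sox factors bind the minor groove of DNA, bend it, and usually act with a partner factor at neighbouring sites. They fall into groups by the similarity of their HMG boxes: Sox2 belongs to group B1, Sox4, Sox11 and Sox12 to group C, Sox5, Sox6 and Sox13 to group D, and Sox8, Sox9 and Sox10 to group E. In the pancreas Sox9 maintains the progenitor pool and persists in duct cells, while Sox4 and Sox11 are expressed as endocrine cells form. Sox2 maintains neural stem cells, where TLX is also at work, and is known to activate Nr2e1.

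The table held 10865462 to 13066536 counts per library, of which gene rows took 8136185 to 9788646. Levels are given as CPM, read counts scaled to a common library size, on totals scaled by the trimmed mean of M-values (TMM), given as the mean with the SD of 2 libraries. Nr2e1 stood at 0.983 ± 0.034 CPM without and 37.3 ± 2.6 CPM with overexpression, a log2 fold change of 5.22 (edgeR adjusted p = 3.18e-14). Of 13 beta cell markers 9 had 0 counts in every library, among them Nkx6-1, Neurod1, Slc2a2 and Iapp, and Ins1 averaged 9.0 ± 0.5 and 10.1 ± 1.8 CPM in the control and TLX groups. The rest were counted at low levels in every library. In control and TLX, Ins2 averaged 4.71 ± 0.96 and 5.0 ± 1.8 CPM, Pdx1 4.11 ± 0.12 and 3.99 ± 0.25 CPM, and Mafa 1.644 ± 0.047 and 2.18 ± 0.30 CPM. The 13 mesenchymal and fibroblast markers summed to 7584 to 7992 CPM in control and 8267 to 8604 CPM in TLX, with Lum at 0 and Dcn, Thy1, Acta2 and Col3a1 under 0.5 CPM on average. Single markers of this list moved both ways: Sparc rose from 169.68 ± 6.69 to 310.45 ± 3.68 CPM and Fn1 fell from 994 ± 35 to 586 ± 29 CPM, with 2 called higher, 2 lower and a median log2 fold change of -0.03. Of these 4, Col1a2 lost its call when any single library was left out, and Pdgfrb without control replicate 1 and in DESeq2. Most beta cell markers at 0 beside abundant Col1a2, Vim and S100a4 (group means of 1549 to 3859 CPM) go against the labelled cell type. The part of this marker pattern in the Sox values was not tested. In bulk RNA, fewer cells of a type and less RNA per cell cannot be told apart.

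Of the 10 Sox genes, 4 were counted in more than single reads: Sox4, Sox9, Sox2 and Sox13. These same 4 had enough counts to be tested among the 11024 genes of the series that did. Sox10 and Sox11 had 0 counts in all libraries, and Sox5, Sox6, Sox8 and Sox12 had 1 count each over the 4 libraries. A count of 0 allows up to 0.302 to 0.379 CPM, depending on the library (3 counts, counting error only), and a count of 1 allows more. Low transcription of these 6 genes is thus not measurable at this depth. Group C was thus represented by Sox4, group D by Sox13, group E by Sox9 and group B1 by Sox2. The rest of the family in the table, Sry, Sox1, Sox3, Sox7, Sox14, Sox15, Sox17, Sox18, Sox21 and Sox30, was no more abundant: 8 of these 10 genes were at 0, Sox18 had 1 count and Sox15 had 2, and 0 of 10 could be tested.

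A gene was called when its adjusted p in edgeR's quasi-likelihood test, with Benjamini-Hochberg adjustment over all genes tested, was under 0.05. Of the 4 tested Sox genes 2 were called, Sox9 and Sox4, both lower with TLX, and 2 were not, Sox2 and Sox13. Over all genes tested 16.8% were called, 7.79% higher and 9.04% lower. Because the symbols were chosen with these values known, nothing is read from the share of Sox genes called. In the same 2 genes both TLX libraries lay below both control libraries, as they did in 28.6% of all genes tested.

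Sox9, the group E factor of pancreatic progenitors, duct cells and cartilage, had the largest difference. It was counted 211 and 285 times in control replicates 1 and 2 and 89 and 84 times in TLX replicates 1 and 2. These counts correspond to levels of 25.3 and 28.7 CPM in control and 10.3 and 10.6 CPM in TLX. Both control libraries were high and both TLX libraries low, without overlap, and the 95% Poisson intervals of the counts (22.0 to 28.9 and 25.5 to 32.2 CPM against 8.27 to 12.7 and 8.45 to 13.1 CPM; exact, counting error only) were also apart. The log2 fold change was -1.37 with an SE of 0.14, which is 2.59-fold lower. Of the 997 genes called lower in the series, 51 had a fall at least as large, Sox9 included. Among the 9644 tested genes that average at least 5 CPM, Sox9 had the 18th most negative log2 fold change.

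Sox4, the group C factor expressed in endocrine progenitors and many growing cells, was the most abundant Sox transcript. Its counts were 292 and 380 in control and 215 and 192 in TLX, levels of 35.0 and 38.3 CPM against 24.9 and 24.2 CPM. Again both TLX libraries were below both control libraries, by a smaller margin than for Sox9. The lowest control interval ran from 31.1 to 39.2 CPM and the highest TLX interval from 21.7 to 28.4 CPM (95%, exact Poisson). The log2 fold change was -0.58 with an SE of 0.11, or 1.49-fold lower. Falls at least as large numbered 388 among the 997 genes called lower, against a median of -0.51 over those genes, and Sox4 had the 506th most negative log2 fold change of the 11024 genes tested. On the GENCODE annotation of GRCm38, a noncoding gene on the opposite strand, Gm26735, overlaps Sox4: 54.1% of the windows of 50 bases in the longest Sox4 transcript also occur in its transcripts. That Sox4 transcript has 4795 bases, while the Sox4 feature that was counted has 2953, so the share for the counted feature is not known. The sources used here do not say whether counting used the strand, and reads of the 2 genes cannot be told apart without it.

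**Figure D1:**
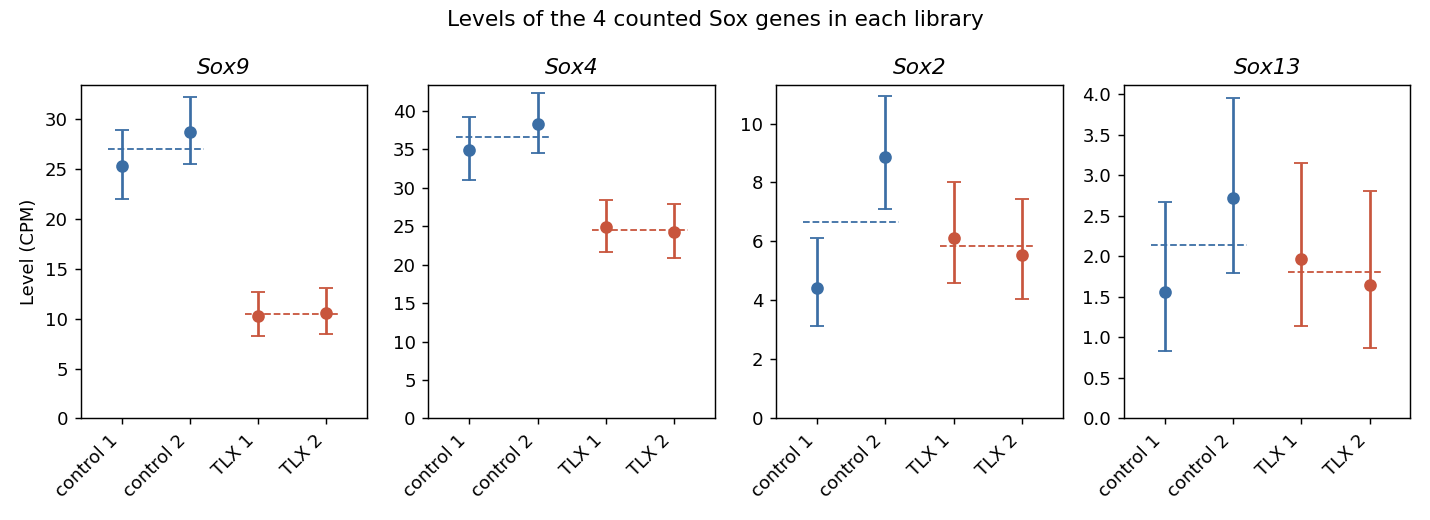
Level in CPM (y axis, from 0) of Sox9, Sox4, Sox2 and Sox13 in each of the 4 libraries (x axis); bars are 95% exact Poisson intervals of the counts and dashed lines the group means. Sox9 lies at 25.3 and 28.7 CPM in control and 10.3 and 10.6 CPM in TLX, while for Sox2 and Sox13 both TLX libraries lie between the 2 control libraries.

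Sox2, the group B1 factor of pluripotent and neural stem cells, did not separate the groups. Its counts were 37 and 88 in control and 53 and 44 in TLX, levels of 4.43 and 8.86 CPM against 6.13 and 5.55 CPM. Control replicate 2 was the highest library and control replicate 1 the lowest, with both TLX libraries between them. The log2 fold change over all 4 libraries was -0.22 with an SE of 0.25. Its sign rested on control replicate 2: without that library it was 0.40, and without control replicate 1 it was -0.60, at which Sox2 would have been called. The control intervals, 3.12 to 6.11 and 7.11 to 10.9 CPM, did not overlap (95%, exact Poisson), so the control pair differed by more than counting error. Among the 9644 tested genes averaging at least 5 CPM, 3 differed between the control libraries by a ratio at least as large as that of Sox2 (2.0), and these were Sox2 itself, 2410017I17Rik and 6230400D17Rik, the last 2 named after their values were seen. The ratio between the TLX libraries was 1.10 for Sox2. Sox2ot, a noncoding gene that spans Sox2 on the same strand, had 3 counts in all, 2 in control replicate 2 and 1 in TLX replicate 2.

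Sox13, a group D factor that lacks a known activation domain, was the rarest of the counted genes. It had 13 and 27 counts in control and 17 and 13 in TLX, levels of 1.56 and 2.72 CPM against 1.97 and 1.64 CPM. As for Sox2, control replicate 2 was the highest library and control replicate 1 the lowest. All 4 counting intervals overlapped, between 0.829 and 3.96 CPM in all. The log2 fold change of -0.27 (SE 0.36) turned to 0.21 without control replicate 2.

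**Figure D2:**
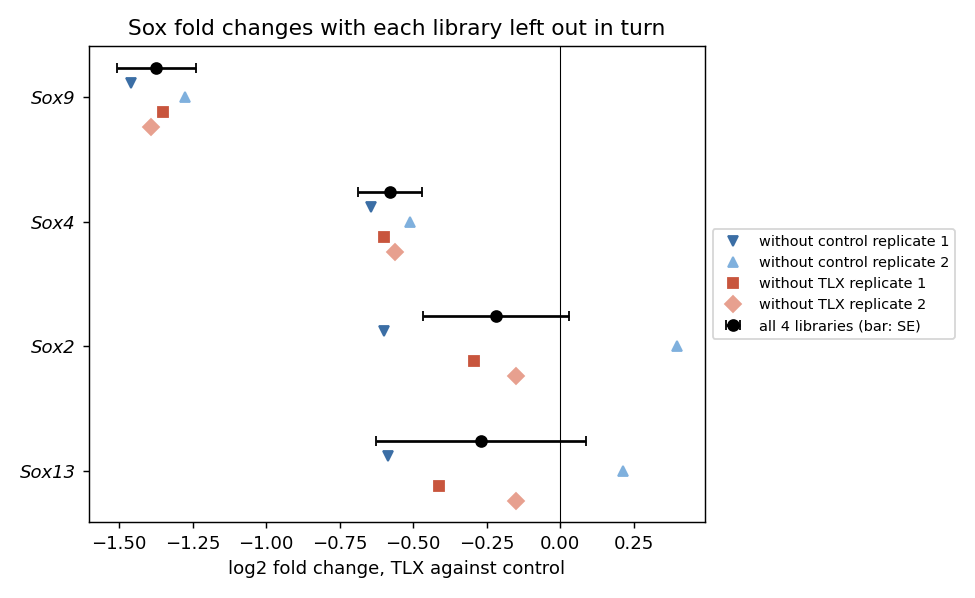
log2 fold change of TLX against control (x axis) for 4 Sox genes with all libraries (black circle, bar of 1 SE) and with each library left out in turn (coloured symbols). Sox9 and Sox4 stay between -1.46 and -0.51, while Sox2 and Sox13 reach 0.40 and 0.21 without control replicate 2.

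Levels were compared between genes as CPM per kilobase of the feature length in the table. In control the order was Sox4 at 12.4 ± 0.8, Sox9 at 6.51 ± 0.58, Sox2 at 2.7 ± 1.3 and Sox13 at 0.61 ± 0.23 CPM per kilobase, and no 2 neighbours in this order overlapped between libraries. In TLX the order began with Sox4 at 8.31 ± 0.15 CPM per kilobase. Sox9 and Sox2 followed at nearly the same level, 2.48 and 2.56 CPM per kilobase for Sox9 and 2.50 and 2.26 for Sox2, so these neighbours did not differ beyond their spread. Sox13 was last at 0.511 ± 0.065 CPM per kilobase. The ratio of Sox9 to Sox4 per kilobase was 0.515 and 0.534 in the control libraries and 0.295 and 0.312 in the TLX libraries. Sox9 took 38.1% and 36.5% of the counts of the 10 genes in control and 23.8% and 25.0% in TLX, while the share of Sox4 was 52.7% and 48.7% in control and 57.5% and 57.1% in TLX. Summed over the 10 genes, control libraries averaged 72.5 ± 8.6 CPM and TLX libraries 42.82 ± 0.61 CPM.

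**Figure D3:**
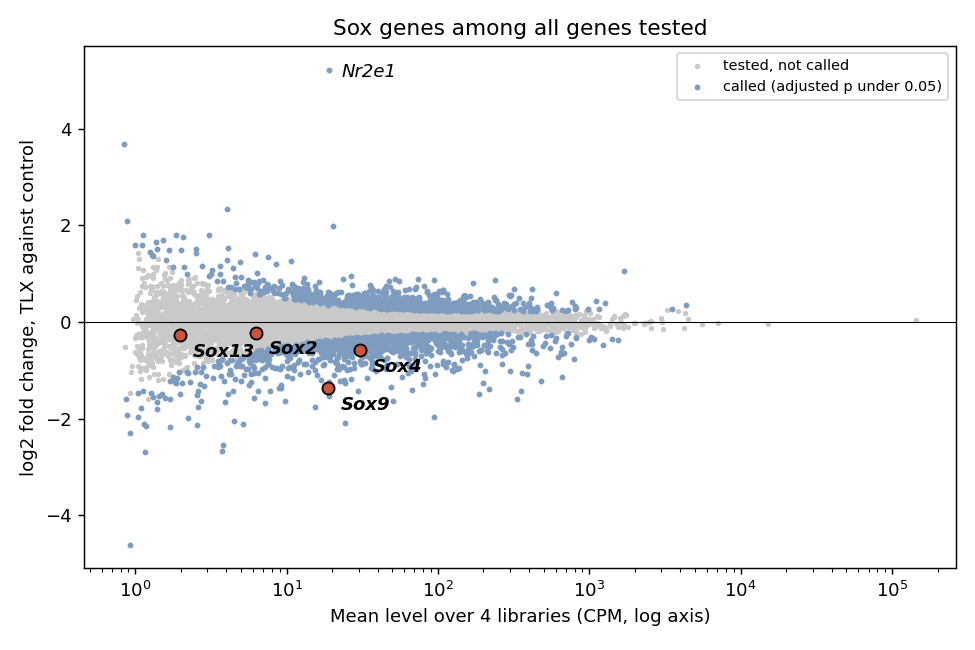
Each point is 1 of the 11024 genes tested, by its mean level over the 4 libraries (x axis, CPM, log scale) and its log2 fold change (y axis); blue points were called, grey ones were not, and the 4 Sox genes are red. Sox9 at -1.37 lies near the lower edge of the genes of its level, Sox4 at -0.58 lies within the called falls, and Sox2 and Sox13 lie within the grey cloud.

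Promoter sequences are shown for 3 of the 4 counted genes: Sox4, which was called above, and Sox2 and Sox13, which were not. RefSeq windows of GRCm38.p6 were found by symbol for 8 of the 10 genes, all but Sox9 and Sox10, and the 250 bases before the annotated start are printed 5′ to 3′ on the strand of the gene, at chr13:28953700-28953949 (minus strand) for Sox4, chr3:34649745-34649994 (plus strand) for Sox2 and chr1:133424213-133424462 (minus strand) for Sox13. Capitals mark matches to any of the 3 motifs searched on both strands: AAGTCA, the half-site that TLX is known to bind, AACAAT, a core bound by Sox factors, and the CCAAT box, which was added after the sequences were seen.
Sox4: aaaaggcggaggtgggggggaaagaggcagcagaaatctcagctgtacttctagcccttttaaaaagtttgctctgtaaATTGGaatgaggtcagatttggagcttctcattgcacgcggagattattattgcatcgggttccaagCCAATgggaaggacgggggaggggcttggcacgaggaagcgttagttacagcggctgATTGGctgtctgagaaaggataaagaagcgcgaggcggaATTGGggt
Sox2: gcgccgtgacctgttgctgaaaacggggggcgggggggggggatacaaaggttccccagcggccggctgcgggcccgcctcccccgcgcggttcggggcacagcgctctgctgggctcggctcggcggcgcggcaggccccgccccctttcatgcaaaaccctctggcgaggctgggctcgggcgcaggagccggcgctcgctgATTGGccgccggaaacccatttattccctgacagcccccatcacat
Sox13: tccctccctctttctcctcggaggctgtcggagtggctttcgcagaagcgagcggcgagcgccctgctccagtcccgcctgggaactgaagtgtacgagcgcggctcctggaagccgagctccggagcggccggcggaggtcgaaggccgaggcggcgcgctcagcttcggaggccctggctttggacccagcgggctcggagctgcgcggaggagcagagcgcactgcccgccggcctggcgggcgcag
Neither AAGTCA nor AACAAT occurs in any of these 3 windows. Only these exact forms were searched, so other forms of the TLX and Sox sites may be present. Over the 32851 windows of this length in the RefSeq set, 13.1% hold AAGTCA, 9.42% hold AACAAT and 33.8% hold CCAAT. The Sox4 window has 4 matches to CCAAT, whose first bases lie 171, 104, 47 and 8 bases before the start. At least 4 occur in 0.84% of all windows. This cutoff was taken from the Sox4 window itself, so the share is a description and nothing is read from it. Sox2 has 1 such match, 46 bases before the start, and Sox13 has 0. The 3 motifs do not contain one another, and no Sox4 match overlaps another. Base composition differed too, with 50.8% G and C in the Sox4 window, 72.0% in Sox2 and 72.4% in Sox13, against a median of 52.4% over all windows.

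Genes that work with or around Sox factors were described by lists. The median log2 fold change over all 11024 genes tested was 0.00, and the shares called were those given above. Genes of signalling pathways known to act upstream of Sox9 in the pancreas and other organs changed in both directions. Among the 16 tested of 21 listed genes, 3 rose and 4 fell while 9 did not pass, at a median log2 fold change of 0.05. Rbpj, the DNA-binding effector of Notch signalling, had levels of 535 and 622 CPM in the control libraries against 400.5 and 419 CPM in the TLX libraries (log2 fold change -0.50, SE 0.08, edgeR adjusted p = 0.000148). Notch1, a receptor of the same pathway, fell from 15.49 ± 0.97 to 10.9 ± 1.9 CPM (edgeR adjusted p = 0.0286, ranging over alternatives from 0.00323 to 0.289, the last without TLX replicate 2; DESeq2 gave 0.241 and leaving out control replicate 1 gave 0.0663). Notch2, a more abundant receptor of that pathway, had 178.55 ± 0.58 and 182 ± 20 CPM in control and TLX and did not pass (log2 fold change 0.02, edgeR adjusted p = 0.891). Hes1, a Notch target in this list, had 4.67 ± 0.51 and 3.21 ± 0.45 CPM and did not pass (edgeR adjusted p = 0.137). Fgfr1, a receptor for fibroblast growth factors, fell from 79.8 ± 1.3 to 61.0 ± 2.0 CPM (edgeR adjusted p = 0.00267, ranging over alternatives from 5.91e-06 to 0.0691, the last without TLX replicate 2). Of the Hippo pathway genes in the list Yap1, the gene of the coactivator YAP, rose from 89.7 ± 3.0 to 110.81 ± 0.85 CPM (edgeR adjusted p = 0.0111, ranging over alternatives from 0.000135 to 0.134; DESeq2 gave 0.0572, and leaving out TLX replicate 1 or TLX replicate 2 gave 0.113 or 0.134), and Tead1, Tead2 and Tead4 did not pass. Wwtr1, which encodes the coactivator TAZ, fell from 259.8 ± 5.9 to 200.6 ± 4.6 CPM (edgeR adjusted p = 0.00112, ranging over alternatives from 1.87e-08 to 0.0615, the last without TLX replicate 1). Tead3, a DNA-binding partner of TAZ and YAP, rose from 34.32 ± 0.26 to 53.3 ± 3.7 CPM (log2 fold change 0.63, edgeR adjusted p = 5.76e-05). Among the Hedgehog genes Smo rose from 86.71 ± 0.99 to 111.3 ± 6.6 CPM (edgeR adjusted p = 0.00372), and Ptch1, Gli1 and Gli3 did not pass. The values of Smo under the alternatives were not listed. Without TLX replicate 2 the list had 3 called genes in place of 7.

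Genes expressed where Sox9 acts in duct cells and pancreatic progenitors were mostly at 0. Of 19 listed genes 11 had 0 counts, among them Krt19, Epcam, Onecut1, Cftr and Neurog3. The 7 tested genes split into 1 that rose, 1 that fell and 5 that did not pass (median log2 fold change -0.04). In edgeR 5 of the 7 had an unadjusted p under 0.05. Pkd2, at 71.0 ± 5.7 and 83.2 ± 9.1 CPM in control and TLX, did not pass (edgeR adjusted p = 0.103), though 2 of 13 alternatives called it. Gata4, at 20.8 ± 1.5 and 17.3 ± 2.2 CPM, did not pass either (edgeR adjusted p = 0.157). Spp1, which encodes the secreted protein osteopontin, was abundant and fell from 907 ± 57 to 717 ± 11 CPM (edgeR adjusted p = 0.00488, ranging over alternatives from 1.47e-07 to 0.0965; leaving out TLX replicate 1 gave 0.0965 and leaving out TLX replicate 2 gave 0.0645). Krt7, a keratin of simple epithelia, rose from 0.95 ± 0.35 to 3.20 ± 0.11 CPM (log2 fold change 1.77, edgeR adjusted p = 0.00151). Cartilage genes that Sox9 is known to activate with Sox5 and Sox6 were near 0: of 14, 7 had 0 counts, Col2a1 averaged 0.12 CPM and Acan 0.032 CPM, and the 1 tested gene, Col11a2, did not pass (edgeR adjusted p = 0.558). Of 14 neural crest and glial genes tied to Sox10 and Sox8, 5 had 0 counts and 2 were tested, Mitf and Erbb3, of which 0 were called (1 at an unadjusted p under 0.05 in edgeR; DESeq2 called 0). Mitf, a melanocyte factor activated by Sox10, had a log2 fold change of -0.45 (edgeR adjusted p = 0.0923, ranging over alternatives from 0.0119, when TLX replicate 2 was left out, to 0.647, with 0.0176 when control replicate 1 was left out), and 5 of 13 alternatives called it.

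Of 10 genes linked to Sox4 and Sox11, 7 were tested, 1 rose, 1 fell and 5 did not pass (median log2 fold change 0.14). Cdh2, the gene of the adhesion protein N-cadherin, rose from 54.1 ± 1.7 to 87.3 ± 3.6 CPM (log2 fold change 0.69, edgeR adjusted p = 5.21e-06), and Mllt11 fell from 27.1 ± 2.3 to 17.04 ± 0.88 CPM (log2 fold change -0.67, edgeR adjusted p = 0.000498). Ezh2, a histone methyltransferase gene known as a Sox4 target, had a log2 fold change of 0.14 and did not pass (edgeR adjusted p = 0.448). Tubb3, a neuronal tubulin gene bound by Sox4 and Sox11, averaged 0.586 CPM and could not be tested. Among 10 neural progenitor genes linked to Sox2, 6 had 0 counts and 4 were tested; Notch1 fell, Nr2e1 itself rose, and Nes and Msi1 did not pass (edgeR adjusted p of 0.208 and 0.734).

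Factors that share the HMG box or bind DNA beside Sox proteins came next. Of the 4 TCF and LEF genes 2 were tested, and Tcf7l2, an effector of Wnt signalling, rose from 3.48 ± 0.35 to 5.609 ± 0.081 CPM (edgeR adjusted p = 0.045). That call was lost in 7 alternatives, namely leaving out each of the 4 libraries in turn, DESeq2 on all libraries, limma-voom on all libraries, and clone rows included (adjusted p ranging over alternatives from 0.0224 to 0.361). Of 16 partner genes 9 were tested, 0 rose and 1 fell: Klf4, a pluripotency factor that acts with Sox2, went from 154 ± 17 to 119.2 ± 4.1 CPM (edgeR adjusted p = 0.00335, ranging over alternatives from 1.48e-07 to 0.0798, the last without TLX replicate 1). Pou5f1, the best known partner of Sox2, had 0 counts in all libraries, and Nanog averaged 0.025 CPM. All 12 genes for proteins that modify or carry Sox factors were tested, of which 2 rose, 0 fell and 10 did not pass (median log2 fold change 0.11). The 2 were the nuclear transport genes Xpo1, from 75.5 ± 5.9 to 113.6 ± 4.4 CPM (edgeR adjusted p = 3.42e-05), and Kpnb1, from 401.3 ± 3.2 to 485.38 ± 0.35 CPM (edgeR adjusted p = 0.0133, ranging over alternatives from 3.42e-05 to 0.171; leaving out TLX replicate 1 gave 0.165 and leaving out TLX replicate 2 gave 0.171). Without control replicate 2 this list had 4 called genes, and leaving out TLX replicate 1 or TLX replicate 2 left 1. Fbxw7, whose ubiquitin ligase marks Sox9 protein for degradation, did not pass (log2 fold change -0.16, edgeR adjusted p = 0.552).

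**Figure D4:**
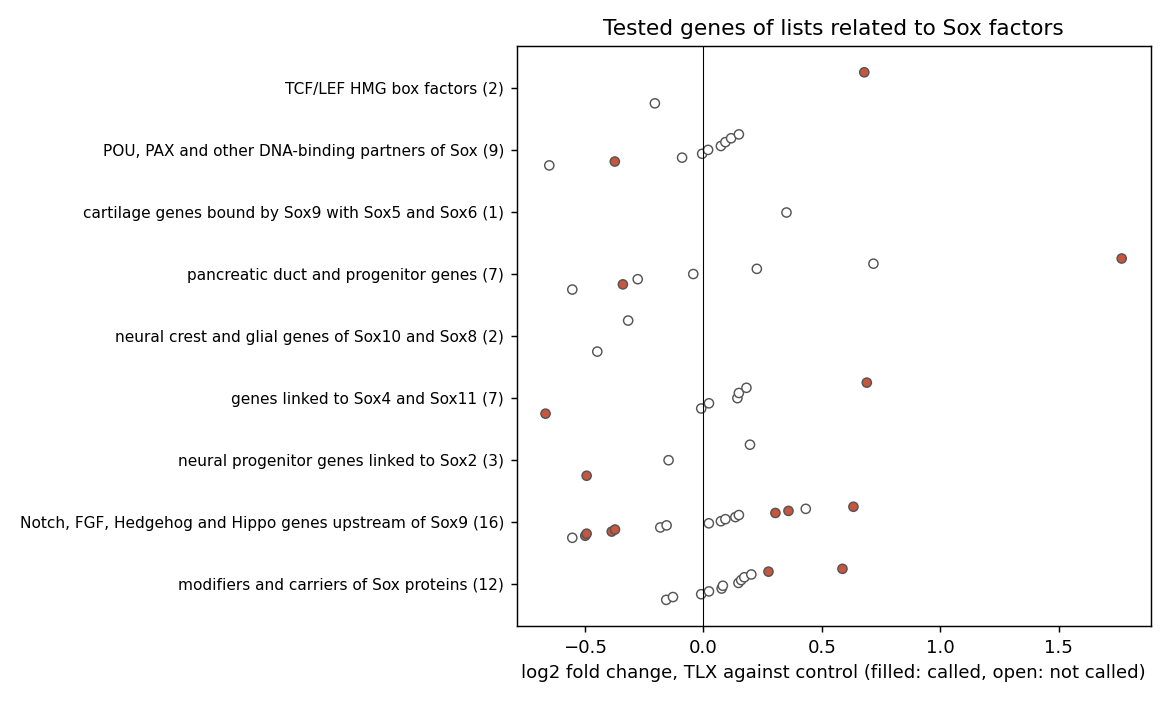
log2 fold change of TLX against control (x axis) for each tested gene of 9 lists related to Sox factors (rows, with the number of tested genes); filled points were called, open points were not, and Nr2e1 is left out. Called genes lie on both sides of 0, and the list of pathways upstream of Sox9 has 3 above and 4 below it.

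The genes whose pattern over the 4 libraries was most like that of Sox9 were Btg2, Ptpn22 and Slc41a3. Likeness was the Euclidean distance between centred log2 levels (0.5 CPM added), which was 0.113, 0.118 and 0.123 on the log2 scale, among genes averaging at least 5 CPM. Btg2, an antiproliferative gene that responds to p53, had 31.5 and 37.1 CPM in the control libraries and 14.3 and 14.4 CPM in the TLX libraries. Ptpn22, a tyrosine phosphatase gene, had 12.2 and 13.5 against 5.20 and 4.79 CPM, and Slc41a3, a magnesium transporter gene, 11.98 and 14.3 against 5.09 and 5.55 CPM. Each distance rests on 4 values a gene. These 3 genes were chosen for likeness to Sox9, so the lack of overlap between their groups follows from that choice.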

How the data were processed

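TopHat2 2.0.13 and the genome build mm9 are named, per the submitters' processing notes; the sources used here do not name the counting program, the annotation or the handling of strand and multiple matches. What the authors deposited is raw read counts for each feature in each library, and the length of each feature, per the file headers. Of 56826 rows, 33353 named for cDNA clones entered neither the library sizes nor the tests. Clone rows took 23.3% to 25.1% of the counts, and 0 clone rows had the same 4 counts as Sox2, Sox4, Sox9 or Sox13; within 10% in every library lay 1 clone row for Sox4, 1 for Sox13 and 0 for Sox2 and Sox9. The ribosomal RNA row Rn45s took 12.2% to 16.7% of gene row counts.

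After a filter on low counts (filterByExpr, minimum count 10), library sizes took TMM factors, and the quasi-likelihood test of edgeR compared TLX with control over the 4 libraries (2 residual degrees of freedom). Adjusted p-values follow Benjamini and Hochberg over the 11024 genes kept, with a threshold of 0.05. The SE is the log2 fold change divided by the square root of F. The procedure was tested on simulated data. The software was DESeq2 1.42.0, limma 3.58.1 and edgeR 4.0.16 under R 4.3.3. The labels do not say that libraries of a group came from separate cultures, so p-values measure the spread between these libraries, which may be technical. The median chi-square between libraries over genes was 1.13 within control and 0.924 within TLX, where sampling noise alone gives 0.455. It was computed on gene row totals without TMM factors, so differences in scaling enter it too. No library was taken as deposited 2 times.

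The Sox genes and the lists were chosen with earlier results of these data known. Named genes are the 10 Sox genes, the rest of the family, Nr2e1, up to 4 genes of smallest p per list (marker lists also by level) and the 3 nearest to Sox9; other list genes were named after their values were seen. Alternatives were other scalings, filters and tools, the replicate number as a block, each library left out, all rows, and no Rn45s and Lars2. Of the list genes 2 were found under older names. The list of leukocyte and endothelial markers had 1 tested gene of 7, Cd68, from 63.7 ± 6.4 to 44.3 ± 1.5 CPM (edgeR adjusted p = 0.000391).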

Additional observations from a re-analysis of the deposited data

How the results depend on the processing

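The calls of Sox9 and Sox4 and their direction held under each of the 13 alternatives run, with log2 fold changes of -1.46 to -1.28 for Sox9 and -0.64 to -0.51 for Sox4. The number of Sox genes called was 2 under each alternative but 1: without control replicate 1 it was 3, as Sox2 passed there. Sox2 and Sox13 ranged from -0.60 to 0.40 and from -0.59 to 0.21 with single libraries left out. Over all genes, 825 were called with DESeq2 (345 higher, 480 lower) in place of 1856 (859 and 997). With single libraries left out, in which a lone library is assumed to vary like the other group, they numbered 1024 to 2053 (388 to 993 higher, 585 to 1060 lower). Nr2e1 kept its direction and call under all 13.

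The replicate numbers were tried as a block, though nothing in the labels says that they pair the libraries (correlation of deviations 0.11 over 2 numbers). With the replicate block 2982 genes were called, 1495 of them higher, and 2 Sox genes.

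Among other named genes that were not called, the sign turned when a library was left out for Col11a2 (-0.029 to 0.76), Msi1 (-0.33 to 0.025), Ins1 (-0.025 to 0.34), Ins2 (-0.33 to 0.44), Pdx1 (-0.10 to 0.020), Ezh2 (-0.0049 to 0.32) and Fbxw7 (-0.31 to 0.018). At 37 to 88 counts a library for Sox2 and 13 to 27 for Sox13, counting error limits what differences could be detected. For Sox2 the spread between the control libraries, which was larger than counting error, limits them further.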
